A study of Mus musculus with 2 samples.

Results

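Genes of blood and lymph vessel endothelium were examined on the bulge array and the hairshaft array. The bulge is the follicle region where stem cells of the hair reside, and the hairshaft is the other follicle structure that was cut. The genes were chosen by name, as 36 symbols of vessel endothelium and its growth factors, and each was represented by the probe sets that the array's annotation assigns to that symbol alone. Of the 36 genes, 35 had such a probe set, out of 18194 genes on the array, and together they had 63 probe sets. Ly6c1 had none of its own and has no value here. The 35 genes comprised 27 of blood or general endothelium, 5 used as lymphatic markers (Flt4, Lyve1, Prox1, Pdpn and Mmrn1) and 3 ligands (Angpt1, Angpt2 and Vegfa). The 27 are called blood vessel genes below, and the name does not exclude that lymphatic endothelium also expresses them.

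Both structures were laser-dissected from eosin-stained frozen skin of 21-day-old C57Bl6 mice, 30 ng of total RNA was amplified, and the product was hybridised to 1 Affymetrix array for each structure. How many animals were used, their sex, the skin site and any pooling were not stated in the sources used here. With 1 array per structure there was no replicate and no test, so every difference describes this pair of arrays, whose number limits the precision. Krt15, a bulge keratin, read 13.99 in bulge RNA and 13.68 in hairshaft RNA. Cd34 and Cd200, surface markers of bulge stem cells that vessel endothelium also expresses, were at least 2-fold higher on the bulge array. Cd34 read 10.54 in bulge RNA and 8.75 in hairshaft RNA, and Cd200 read 8.95 in bulge RNA and 6.16 in hairshaft RNA. No full list of bulge markers was counted. Of 10 keratins that define the hair shaft, none was at least 2-fold higher on the hairshaft array and 6 were on the bulge array, and 4 (Krt31, Krt33a, Krt35 and Krt86) were under the background floor on the hairshaft array. On the bulge array, all 12 skeletal muscle markers and all 8 measured adipocyte markers were at least 8-fold higher, with Acta1, the skeletal muscle actin, at 15.15 in bulge RNA and 3.11 in hairshaft RNA. The bulge as such holds neither skeletal muscle nor fat, so a value in bulge RNA is not assigned to the bulge alone. Both labels are therefore used here as sample names only. Values are log2 GCRMA values, differences are bulge minus hairshaft, and a gene with several probe sets is described by the brightest one, averaged over the arrays.

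Endothelial cells line all vessels. Vascular endothelial growth factors act on them through the receptors Flt1, Kdr and Flt4, and angiopoietins act through Tek, whose relative Tie1 is expressed beside it. Endothelium is held together by VE-cadherin (Cdh5), claudin-5 (Cldn5) and immunoglobulin-type adhesion molecules. Lymphatic endothelium is specified by Prox1 and marked by Flt4, Lyve1 and podoplanin (Pdpn). In skin, capillaries surround the follicle and lie in the dermis, the fat layer and the muscle beneath it, and keratinocytes themselves make Vegfa.

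Blood vessel genes were higher on the bulge array as a group, and the lymphatic genes were divided in the size of their differences. Of the 35 measured genes, 25 were at least 2-fold higher in bulge RNA, none was at least 2-fold higher in hairshaft RNA and 10 were under 2-fold apart. Across the array, 11.4% of 13329 genes above the background floor were at least 2-fold higher in bulge RNA and 4.91% were at least 2-fold higher in hairshaft RNA. The floor, at 2.68 on both arrays, is the 95th percentile of 80 olfactory and vomeronasal receptor probe sets, genes not expected in skin. At 8-fold the count was 11 of 35, beside 3.02% of all genes above the floor, and in the other direction it was none, beside 0.188%. The 8-fold count depended on the setting: it was 5 (Pecam1, Esam, Plvap, Aplnr and Gpihbp1) with the floor raised to the 99th percentile of the same receptor probe sets (4.21 on both arrays), beside 2.53% of all genes, and 3 (Pecam1, Plvap and Aplnr) with an offset of 16 added before taking log2, beside 1.75%. By group, 22 of 27 blood vessel genes, 2 of 5 lymphatic genes and 1 of 3 ligands were at least 2-fold higher in bulge RNA. The median difference was 2.68 for the blood vessel genes, 0.84 for the lymphatic genes and 0.09 for the ligands, against 0.00 for all genes above the floor. Each of the 35 passed the floor, but 7 of them (Pecam1, Cdh5, Kdr, Sox17, Clec14a, Angpt1 and Prox1) did so through the bulge array alone. For these the floor stands in for the hairshaft value and a fold is a lower bound. Without any floor the median over all 35 was 2.21. The arrays measure pieces of tissue, so fewer endothelial cells and less RNA per endothelial cell cannot be told apart.

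**Figure D1:**
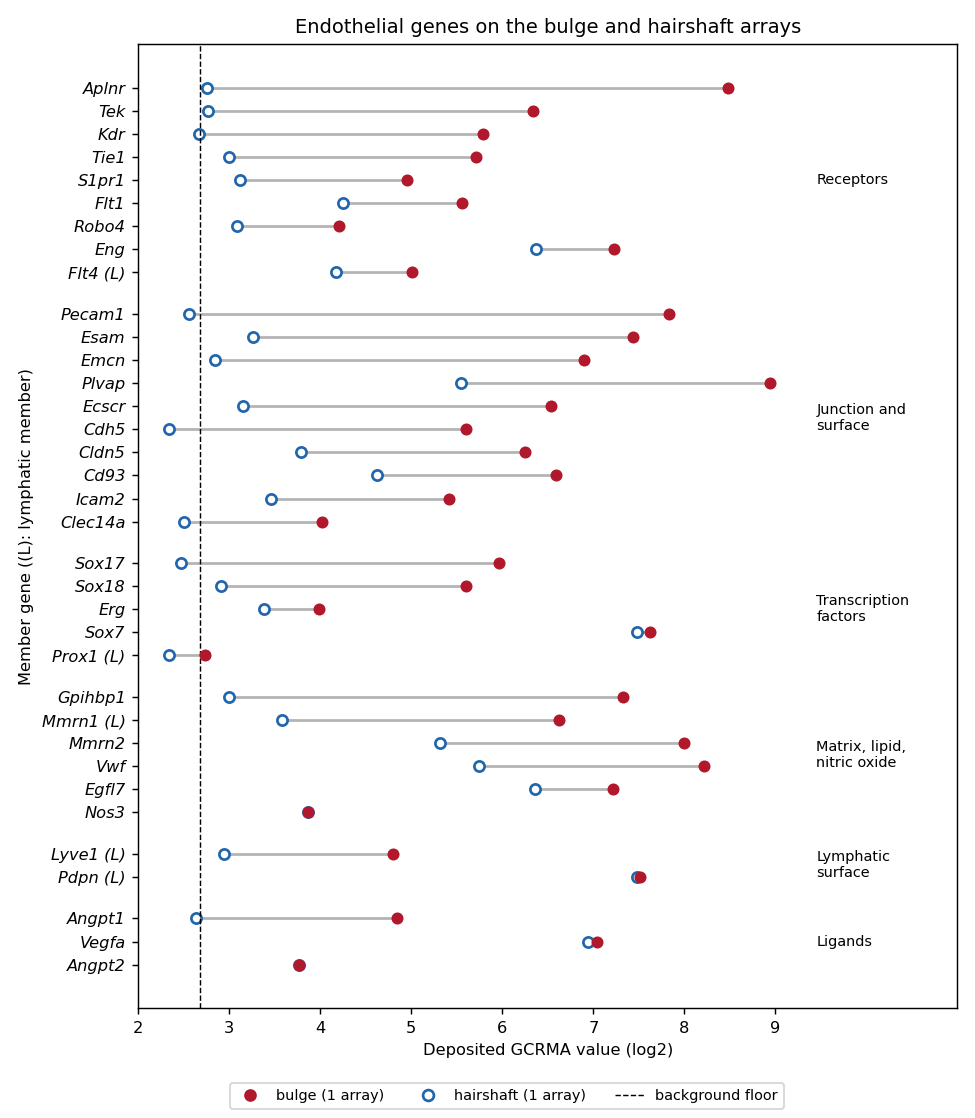
Deposited log2 GCRMA value (horizontal axis) of each of the 35 genes on the bulge array (filled red) and the hairshaft array (open blue), grouped by role, with the background floor of 2.68 as a dashed line and lymphatic genes marked (L). Most junction, surface and receptor genes lie well to the right in bulge RNA, whereas Sox7, Pdpn and Vegfa nearly coincide and for Nos3 and Angpt2 the red point covers the blue one.

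The upstream sequences of some of these genes are shown because the genes were higher on the same array and because endothelial genes are commonly regulated by ETS and SOX factors, both of which are among the 36. RefSeq promoter entries (GRCm38.p6) matched 17 of the 36 genes, with 24 start sites. The 250 bases before the start are given for the partner receptors Tek and Tie1, for Kdr, for the blood endothelial surface gene Emcn and for Mmrn1, the lymphatic gene with the largest difference. Capitals mark matches on either strand to CNGGAAG, an ETS-type motif, or AACAAT, a SOX-type motif, and in these windows the matches did not overlap.
Tek, chr4:94739039-94739288, plus strand: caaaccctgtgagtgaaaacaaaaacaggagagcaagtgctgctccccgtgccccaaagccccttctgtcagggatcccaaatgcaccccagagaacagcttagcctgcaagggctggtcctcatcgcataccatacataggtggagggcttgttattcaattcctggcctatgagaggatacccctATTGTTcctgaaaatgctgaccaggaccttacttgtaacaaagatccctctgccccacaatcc
Tie1, chr4:118489850-118490099, minus strand: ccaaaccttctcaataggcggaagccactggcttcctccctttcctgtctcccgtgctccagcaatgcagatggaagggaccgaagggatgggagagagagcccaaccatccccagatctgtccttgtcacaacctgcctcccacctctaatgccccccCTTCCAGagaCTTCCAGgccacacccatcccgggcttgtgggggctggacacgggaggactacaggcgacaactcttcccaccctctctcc
Kdr, chr5:75978456-75978705, minus strand: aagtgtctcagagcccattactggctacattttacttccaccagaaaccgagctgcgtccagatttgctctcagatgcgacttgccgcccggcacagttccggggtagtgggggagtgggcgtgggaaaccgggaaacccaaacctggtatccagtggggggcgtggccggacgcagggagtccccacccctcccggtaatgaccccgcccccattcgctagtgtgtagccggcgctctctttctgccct
Emcn, chr3:137340828-137341077, plus strand: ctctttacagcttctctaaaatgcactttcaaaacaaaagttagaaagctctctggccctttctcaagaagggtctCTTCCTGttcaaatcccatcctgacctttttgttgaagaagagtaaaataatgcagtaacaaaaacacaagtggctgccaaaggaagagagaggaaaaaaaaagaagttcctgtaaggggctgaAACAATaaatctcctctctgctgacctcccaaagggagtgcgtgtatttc
Mmrn1, chr6:60944067-60944316, plus strand: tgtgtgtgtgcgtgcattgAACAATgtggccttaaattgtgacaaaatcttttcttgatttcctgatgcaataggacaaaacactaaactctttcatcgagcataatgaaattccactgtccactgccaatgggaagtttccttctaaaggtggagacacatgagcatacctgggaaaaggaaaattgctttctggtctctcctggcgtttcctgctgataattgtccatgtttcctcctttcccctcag
Tie1 held 2 matches to the ETS-type motif, Emcn held 1 match to each motif, Tek and Mmrn1 held 1 SOX-type match each and Kdr held neither. The ETS-type motif was found in 11 of the 24 windows (45.8%) and in 26.6% of all 32851 promoter windows of this length. The SOX-type motif was found in 4 of the 24 (16.7%) and in 9.42% of all windows. Some of the 24 windows belong to the same gene, and a match is only a run of letters, found also upstream of Egfl7, Erg, Flt4 and Prox1, which were under 2-fold apart.

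Among the receptors, 7 of 9 were at least 2-fold higher in bulge RNA, with a median difference of 1.83. Aplnr, the receptor of apelin, had 8.48 in bulge RNA and 2.76 in hairshaft RNA, a difference of 5.72 or 52.7-fold. Its other probe set read 4.997 in bulge RNA and 3.93 in hairshaft RNA, a difference of 1.06, so its direction was shared and its size was not. Tek, the angiopoietin receptor, had 6.34 in bulge RNA and 2.77 in hairshaft RNA and was 11.9-fold higher. Its partner Tie1 had 5.71 in bulge RNA and 2.99 in hairshaft RNA and was 6.57-fold higher. Both are single-probe-set genes, and both were near the floor in hairshaft RNA. With the 99th percentile floor their differences were 2.13 for Tek and 1.495 for Tie1.

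The 3 receptors of vascular endothelial growth factors were ordered by size of difference as Kdr, Flt1 and Flt4. Kdr, the main signalling receptor of blood endothelium, had 5.79 in bulge RNA and 2.67 in hairshaft RNA and was at least 8.66-fold higher. This bound is a difference of 3.11, and it became 1.58 with the 99th percentile floor and 1.67 with the offset of 16. Flt1, which binds Vegfa tightly and limits its action, had 5.56 in bulge RNA and 4.25 in hairshaft RNA and was 2.48-fold higher, but was under the 2-fold limit with the offset of 16 (0.85). The 4 probe sets of Flt1 gave differences of 2.56 (a lower bound), 1.31, 0.39 and 0.00, so part of this order rests on which probe set is read. Flt4, the receptor for Vegfc and Vegfd on lymphatic endothelium, had 5.004 in bulge RNA and 4.17 in hairshaft RNA and was 1.78-fold apart. Its second probe set read 2.86 in bulge RNA and 2.85 in hairshaft RNA. With no replicate, neighbouring differences of this size could not be ranked against an error.

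By their brightest probe sets, the remaining receptors, S1pr1, Robo4 and Eng, were less far apart than Aplnr, Tek, Tie1 and Kdr. S1pr1, a sphingosine-1-phosphate receptor that steadies endothelial junctions, had 4.95 in bulge RNA and 3.12 in hairshaft RNA and was 3.57-fold higher. Its difference of 1.83 became 0.74 with the 99th percentile floor and 0.93 with the offset of 16, both under the 2-fold limit. Robo4, a guidance receptor of endothelium, had 4.20 in bulge RNA and 3.08 in hairshaft RNA and was 2.17-fold higher. It was at or under the 99th percentile floor on both arrays, and its difference of 1.12 became 0.73 with the floor set at each array's median and 0.49 with the offset of 16. Endoglin (Eng), a TGF-beta co-receptor that is also made by other stromal cells, had 7.22 in bulge RNA and 6.37 in hairshaft RNA, 1.80-fold apart. The second probe set of Eng read 5.46 in bulge RNA and 3.34 in hairshaft RNA, a difference of 2.12.

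Junction and surface genes were uniform in direction, with all 10 measured genes at least 2-fold higher in bulge RNA and a median difference of 3.15. Pecam1 (CD31), an adhesion molecule of endothelium, platelets and some leukocytes, had 7.83 in bulge RNA and 2.56 in hairshaft RNA, under the floor, and was at least 35.6-fold higher. Esam, a tight junction adhesion molecule, had 7.44 in bulge RNA and 3.26 in hairshaft RNA and was 18.1-fold higher. Endomucin (Emcn), a sialomucin of capillaries and veins, had 6.89 in bulge RNA and 2.84 in hairshaft RNA and was 16.6-fold higher. These genes are clearly read in bulge RNA and at or close to the floor in hairshaft RNA. With the 99th percentile floor the differences were 3.62 for Pecam1, 3.22 for Esam and 2.68 for Emcn.

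Plvap behaved differently in one respect. This protein of the diaphragms of fenestrated capillaries had 8.94 in bulge RNA and 5.54 in hairshaft RNA, a 10.5-fold difference, but its hairshaft value was well above the floor. Ecscr, an endothelial cell surface protein, had 6.53 in bulge RNA and 3.15 in hairshaft RNA and was 10.4-fold higher. Cdh5, the cadherin of endothelial junctions, had 5.60 in bulge RNA and 2.34 in hairshaft RNA, under the floor, and was at least 7.57-fold higher, while its second probe set was under the floor on both arrays. Cldn5, the tight junction claudin of endothelium, had 6.25 in bulge RNA and 3.78 in hairshaft RNA and was 5.53-fold higher. With the offset of 16 the differences were 2.12 for Ecscr, 1.52 for Cdh5 and 1.63 for Cldn5.

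The remaining surface genes had smaller differences. Cd93, a lectin-like receptor of endothelium and myeloid cells, had 6.59 in bulge RNA and 4.62 in hairshaft RNA and was 3.92-fold higher. A second probe set of Cd93 read 5.83 in bulge RNA and 3.41 in hairshaft RNA (5.34-fold), and the other 3 of its 5 probe sets were equal on both arrays and between 2.23 and 2.78. Icam2, an adhesion molecule for leukocytes, had 5.41 in bulge RNA and 3.45 in hairshaft RNA and was 3.89-fold higher. Clec14a, a lectin-type protein of endothelium that binds Mmrn2, had 4.02 in bulge RNA and 2.51 in hairshaft RNA and was at least 2.54-fold higher. Cd93 was under the 2-fold limit with the mean of its probe sets (0.88), and Clec14a with that mean (0.54), with the floor at each array's median (0.55) and with the offset of 16 (0.53). The difference of Icam2 was 1.20 with the 99th percentile floor.

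Endothelial transcription factors did not move as a block. Sox17, a SOX factor of arterial endothelium, had 5.97 in bulge RNA and 2.47 in hairshaft RNA and was at least 9.79-fold higher, and its other probe set read 4.81 in bulge RNA and 3.15 in hairshaft RNA. The first of these ends in _x_at, a class of probe set that can also match other transcripts. Sox18, which acts upstream of Prox1 in lymphatic development and is also expressed in the dermal papilla, had 5.60 in bulge RNA and 2.91 in hairshaft RNA and was 6.45-fold higher. With the 99th percentile floor the differences were 1.76 for Sox17 and 1.39 for Sox18. Sox7, the remaining member of this SOX subfamily, had 7.62 in bulge RNA and 7.47 in hairshaft RNA, only 1.11-fold apart. Its second probe set read 2.92 on both arrays, close to the floor. Of the 3 related factors, then, a pair was far apart. The third was nearly equal on both arrays, and only its brighter probe set was well above the floor. Erg, an ETS factor of endothelial identity, had 3.98 in bulge RNA and 3.38 in hairshaft RNA and was 1.52-fold apart. Fli1, a closely related ETS factor that leukocytes also express, had 7.11 in bulge RNA and 4.21 in hairshaft RNA, a difference of 2.89.

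Matrix, lipid-handling and nitric oxide genes were mostly higher in bulge RNA, at least 2-fold for 4 of 6. Gpihbp1, which carries lipoprotein lipase across capillary endothelium, had 7.32 in bulge RNA and 2.99 in hairshaft RNA and was 20.1-fold higher, a difference of 4.33 that became 3.11 with the 99th percentile floor. The lipase itself, Lpl, made by fat and muscle cells, had 12.67 in bulge RNA and 6.21 in hairshaft RNA, a difference of 6.46. Von Willebrand factor (Vwf), a clotting protein stored in endothelium, had 8.22 in bulge RNA and 5.74 in hairshaft RNA and was 5.58-fold higher. Mmrn2, an endothelial matrix glycoprotein, had 8.001 in bulge RNA and 5.32 in hairshaft RNA and was 6.42-fold higher. All 4 of its probe sets were at least 2-fold higher in bulge RNA, with differences of 1.09 and 3.46 (both lower bounds), 2.68 and 2.93.

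Egfl7 and Nos3 were the exceptions of that group. Egfl7, a secreted endothelial protein, had 7.22 in bulge RNA and 6.36 in hairshaft RNA by its brightest probe set, 1.81-fold apart. Its other 3 probe sets gave differences of 2.26, 1.16 and 0.15 (this brightest set and that at 1.16 are of the _x_at class), so Egfl7 crosses the 2-fold limit when another probe set is read. Nos3, the endothelial nitric oxide synthase, read 3.87 on both arrays.

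The 5 lymphatic genes were all higher in bulge RNA, by differences that ran from 0.04 to 3.04, except that Pdpn was at -0.03 with quantile normalization. Of the 5, 3 were under 2-fold apart. Mmrn1, a multimerin of lymphatic endothelium and platelets, had 6.62 in bulge RNA and 3.58 in hairshaft RNA and was 8.24-fold higher, a difference of 3.04 that became 1.52 with the mean of its probe sets. Lyve1, a hyaluronan receptor of lymphatic endothelium and tissue macrophages, had 4.80 in bulge RNA and 2.94 in hairshaft RNA and was 3.63-fold higher. Its second probe set read 3.55 on both arrays, and the difference of Lyve1 became 0.93 when its probe sets were averaged and 0.59 with the 99th percentile floor. Flt4, described above, was under 2-fold apart. Pdpn had 7.52 in bulge RNA and 7.48 in hairshaft RNA, 1.03-fold apart, and this gene is also expressed by keratinocytes and fibroblasts. Prox1, the factor that specifies lymphatic identity, had 2.73 in bulge RNA and 2.34 in hairshaft RNA, and its other 2 probe sets were at 2.23 on both arrays. The defining lymphatic factor was thus just above the floor in bulge RNA and under it in hairshaft RNA, and its difference could not be read at this signal.

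Blood and lymphatic genes overlapped in their differences. The 27 blood vessel genes ran from 0.00 to 5.72 and the 5 lymphatic genes from 0.04 to 3.04, so Mmrn1 lay above the blood vessel median of 2.68. The blood vessel median was the larger one as reported and under the 9 alternatives. Removing the floor left both medians as they were, and removing the median difference, which was already 0.00, changed no value. Genes are not replicates, 5 are few and the 27 include genes of general endothelium, so whether the groups differ was not tested.

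**Figure D2:**
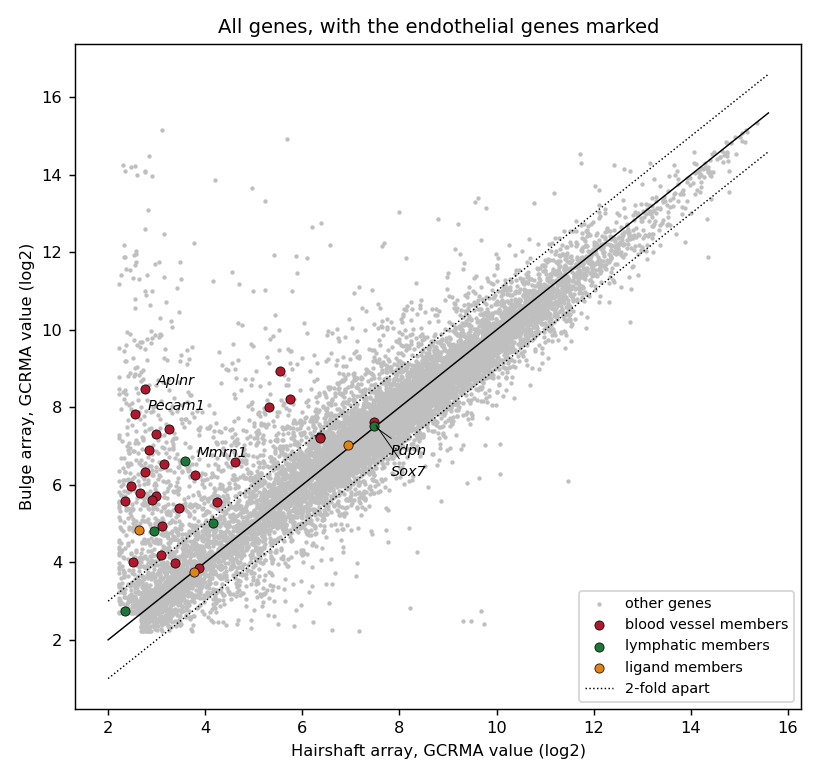
Bulge value against hairshaft value (log2 GCRMA) for the 13329 genes above the floor (grey), with blood vessel (red), lymphatic (green) and ligand (orange) genes marked, the line of equality and dotted lines 2-fold apart. Of the marked genes 25 lie above the upper dotted line and none below the lower one.

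Among the 3 ligands, Vegfa and Angpt2 were under 2-fold apart and Angpt1 was higher in bulge RNA. Vegfa, the main growth factor of blood vessels, had 7.03 in bulge RNA and 6.94 in hairshaft RNA, 1.07-fold apart, and its second probe set read 4.52 in bulge RNA and 4.51 in hairshaft RNA. Angpt1, the activating ligand of Tek made by cells around the vessel, had 4.84 in bulge RNA and 2.63 in hairshaft RNA, under the floor, and was at least 4.49-fold higher. Its second probe set read 3.03 in bulge RNA and 2.97 in hairshaft RNA, and with the floor at the 99th percentile the difference of Angpt1 became 0.63. Angpt2, the ligand that loosens vessels when Tek signalling is withdrawn, read 3.76 on both arrays.

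Values that were equal on both arrays need a separate reading. Of the 63 probe sets of these genes, 14 were equal to within 0.01, and of the 54 above the floor 7 were, against 13.4% of all 28721 probe sets above the floor. The 7 belonged to Flt1, Sox7, Nos3, Cd93, Lyve1, Angpt2 and Vegfa. Among the 80 olfactory and vomeronasal receptor probe sets, 75 (93.8%) were equal to within the same tolerance. An equal pair such as that of Nos3 or Angpt2, whose single probe sets above the floor lie at 3.87 and 3.76, therefore does not show that the gene was expressed equally.

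Several probe sets of the same gene were the only repeat readings, and they read the same RNA on the same array. Their agreement is therefore no replicate of the difference between the structures. Of the 18 genes with more than 1 probe set, 12 had at least 2 above the floor. In 3 of these (Aplnr, Mmrn2 and Sox17) every such probe set was at least 2-fold higher in bulge RNA, in 3 (Sox7, Vegfa and Flt4) none was, and in 6 (Angpt1, Cd93, Egfl7, Eng, Flt1 and Lyve1) they were divided. No probe set above the floor was at least 2-fold higher in hairshaft RNA, against 35 of 54 in bulge RNA. Among all genes above the floor these shares were 4.91% and 11.4%, and the shares over all probe sets were not computed. At the 2-fold limit, then, no second probe set opposed the direction, while the size often changed with it.

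**Figure D3:**
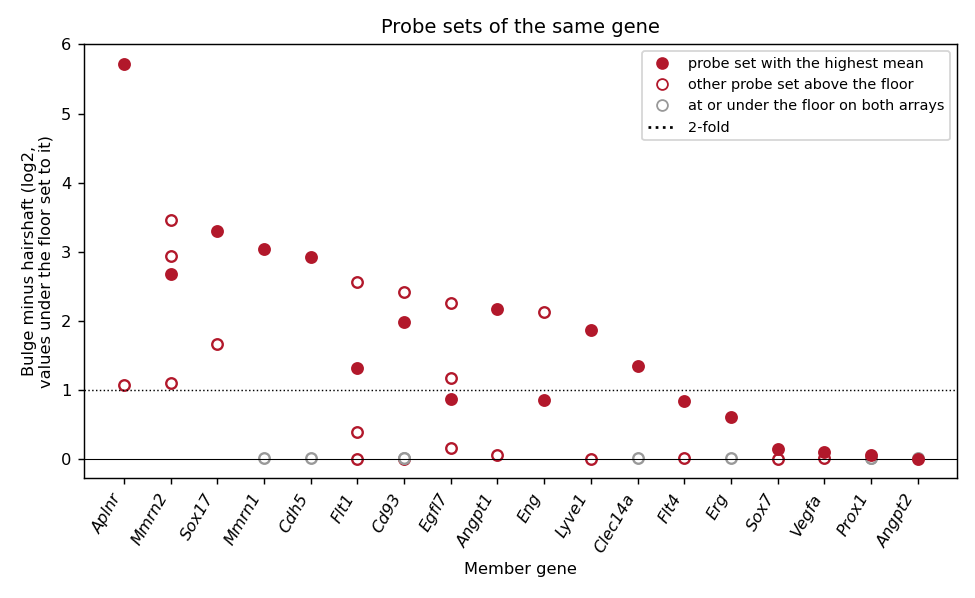
Bulge minus hairshaft difference (log2, values under the floor set to it) of each probe set of the 18 genes with several, with the probe set used for the gene filled, other probe sets above the floor open red, and those at or under the floor on both arrays grey. Points of Flt1, Cd93, Egfl7, Angpt1, Eng and Lyve1 lie on both sides of the dotted 2-fold line.

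Further vessel genes, listed with earlier results of these data known, were counted in the same way. Of 50 other endothelial genes above the floor (53 measured), 32 were at least 2-fold higher in bulge RNA. Among all genes above the floor that share was 11.4%. None of the 50 was at least 2-fold higher in hairshaft RNA, 18 were under 2-fold apart and the median difference was 1.65. The 32 include Cd34 and Cd200, which also mark bulge stem cells, so this count is not of vessel expression alone. The largest differences were in Cd36, a fatty acid transporter of capillaries, fat and muscle (12.24 in bulge RNA, 3.78 in hairshaft RNA, 8.47), and in the endothelial adhesion receptor Adgrf5 (8.20 in bulge RNA, 2.62 in hairshaft RNA, at least 5.52). Ptprb, the phosphatase that restrains Tek, had 8.24 in bulge RNA and 3.36 in hairshaft RNA (4.88), and the adhesion receptor Adgrl4 had 6.33 in bulge RNA and 2.36 in hairshaft RNA (at least 3.66). Of 13 other lymph vessel genes above the floor (15 measured), 6 were at least 2-fold higher in bulge RNA, 1 (Itga9, 2.38 in bulge RNA and 3.75 in hairshaft RNA) in hairshaft RNA and 6 under 2-fold apart. They were led by Tbx1 (6.25 in bulge RNA, 2.93 in hairshaft RNA), Reln (6.76 in bulge RNA, 4.14 in hairshaft RNA), Cp (5.81 in bulge RNA, 3.36 in hairshaft RNA) and Foxc2 (4.40 in bulge RNA, 2.23 in hairshaft RNA), and many of this list are also expressed outside lymph vessels.

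Among 17 other vessel-acting ligands above the floor (20 measured), 5 were at least 2-fold higher in bulge RNA, none in hairshaft RNA and 12 under 2-fold apart. Cxcl12, a chemokine of stromal and endothelial cells, had 9.15 in bulge RNA and 4.54 in hairshaft RNA (4.61). Vegfb, abundant in muscle and fat, had 6.70 in bulge RNA and 4.47 in hairshaft RNA (2.23), Angptl4, a lipase inhibitor, had 6.22 in bulge RNA and 4.18 in hairshaft RNA (2.05) and Slit2, a ligand of Robo receptors, had 6.94 in bulge RNA and 5.44 in hairshaft RNA. The lymphatic growth factors were under 2-fold apart, with 5.42 in bulge RNA and 5.06 in hairshaft RNA for Vegfc and 8.36 in bulge RNA and 7.75 in hairshaft RNA for Vegfd.

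Most markers of muscle, fat and mural tissue moved with the vessel genes. All 12 skeletal muscle markers were at least 8-fold higher in bulge RNA (median 11.40). They included Acta1, given above, and Tnni2 at 14.48 in bulge RNA and 2.85 in hairshaft RNA. The same held for all 8 adipocyte markers measured (median 6.73), among them Fabp4, which capillary endothelium also expresses, at 13.87 in bulge RNA and 4.19 in hairshaft RNA, and Adipoq at 11.96 in bulge RNA and 2.57 in hairshaft RNA. Of 12 pericyte and smooth muscle markers, 9 were at least 2-fold higher in bulge RNA (median 1.90), led by Des (11.18 in bulge RNA, 4.69 in hairshaft RNA), which skeletal muscle also makes, and the pericyte gene Rgs5 (10.37 in bulge RNA, 5.44 in hairshaft RNA). The others were under 2-fold apart: Pdgfrb (9.47 in bulge RNA, 8.71 in hairshaft RNA), Notch3 (8.995 in bulge RNA, 8.88 in hairshaft RNA) and Higd1b (2.97 in bulge RNA, 2.85 in hairshaft RNA). On the linear scale the summed signal was 3375 in bulge RNA and 684 in hairshaft RNA for blood vessel genes. It was 9433 in bulge RNA and 2273 in hairshaft RNA for pericyte and smooth muscle markers, 58289 in bulge RNA and 172 in hairshaft RNA for adipocyte markers, and 223507 in bulge RNA and 103 in hairshaft RNA for muscle markers. In the hairshaft, 5 of 12 muscle markers and 5 of 8 adipocyte markers were at or under the floor, so that these differences are lower bounds and give no order among the markers. The part of muscle, fat and mural tissue in the vessel gene result was not tested.

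Markers of other cell types were divided. Of the 10 hair shaft keratins, 6 were at least 2-fold higher in bulge RNA and none in hairshaft RNA, with a median difference of 1.87 and a summed signal of 443 in bulge RNA and 120 in hairshaft RNA. Among them were Krt33a (7.07 in bulge RNA and 2.44 in hairshaft RNA) and Krt31 (6.11 in bulge RNA and 2.61 in hairshaft RNA). Of 11 keratinocyte markers, none was at least 2-fold higher in bulge RNA and 1 (Itga6, 11.21 in bulge RNA and 12.31 in hairshaft RNA) in hairshaft RNA, and the next largest difference was in Sfn (11.17 in bulge RNA, 11.95 in hairshaft RNA). Their summed signal was 185750 in bulge RNA and 190162 in hairshaft RNA, so both arrays carried strong keratinocyte signal. Of 10 macrophage and leukocyte markers, none was at least 2-fold higher in bulge RNA and 1 (Cd3e, 5.77 in bulge RNA and 7.25 in hairshaft RNA) in hairshaft RNA. Their summed signal was 4468 in bulge RNA and 5140 in hairshaft RNA, with Cd163 at 8.64 in bulge RNA and 7.65 in hairshaft RNA. The part of such cells in the values of Pecam1, Cd93 and Lyve1 was not tested. Of 10 fibroblast markers, 2 were at least 2-fold higher in bulge RNA and 4 in hairshaft RNA, with Col1a1 at 11.87 in bulge RNA and 14.36 in hairshaft RNA, Mfap5 at 5.69 in bulge RNA and 3.65 in hairshaft RNA, and a summed signal of 36124 in bulge RNA and 83260 in hairshaft RNA. The Schwann cell list had 2 of 4 markers at least 2-fold higher in bulge RNA, Cdh19 (5.67 in bulge RNA, 2.74 in hairshaft RNA) and Sox10 (5.71 in bulge RNA, 4.64 in hairshaft RNA). The brightest of the list, Mbp, went the other way by under 2-fold (7.84 in bulge RNA, 8.80 in hairshaft RNA). Their summed signal was 343 in bulge RNA and 487 in hairshaft RNA. Erythroid markers were low on both arrays, with 3 of 5 above the floor, a highest value of 3.52 on each, a summed signal of 38.8 in bulge RNA and 39.8 in hairshaft RNA, and Hba-a1 and Alas2 under the floor.

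**Figure D4:**
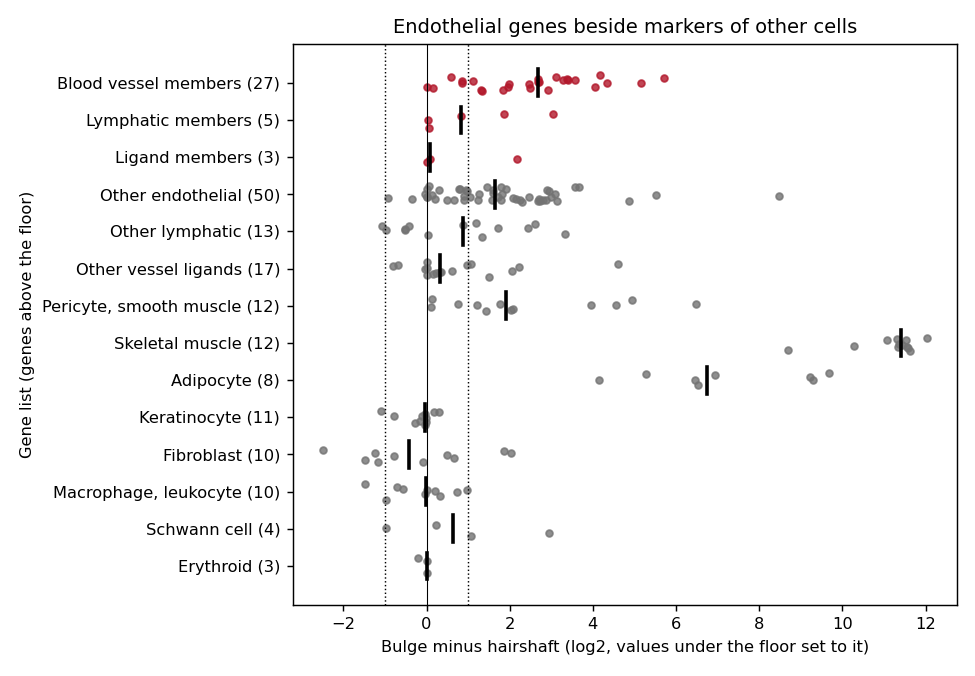
Bulge minus hairshaft difference (log2, values under the floor set to it) of each gene above the floor, by list, with the number of genes in brackets, a black bar at the list median and dotted lines at 2-fold. Blood vessel genes (median 2.68) lie with pericyte and smooth muscle markers (1.90) and below adipocyte (6.73) and skeletal muscle markers (11.40), while keratinocyte and leukocyte markers centre near 0.

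Across the other settings no gene that was at least 2-fold apart changed direction, and the sizes varied. The floor and offset settings could not have reversed such a gene, because they treat both arrays nearly alike. Of the 25 genes at least 2-fold higher in bulge RNA, 18 stayed so in every setting that gave a value, and Angpt1, Cd93, Clec14a, Flt1, Lyve1, Robo4 and S1pr1 were under the limit in at least 1. Eng and Egfl7 passed it with the mean of their probe sets, at 1.48 and 1.11. Aplnr had the widest range, from 1.06 with plain probe sets only to 5.76, and Vwf, Plvap and Mmrn2, which were well above the floor on both arrays, had among the narrowest of the far-apart genes.

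**Figure D5:**
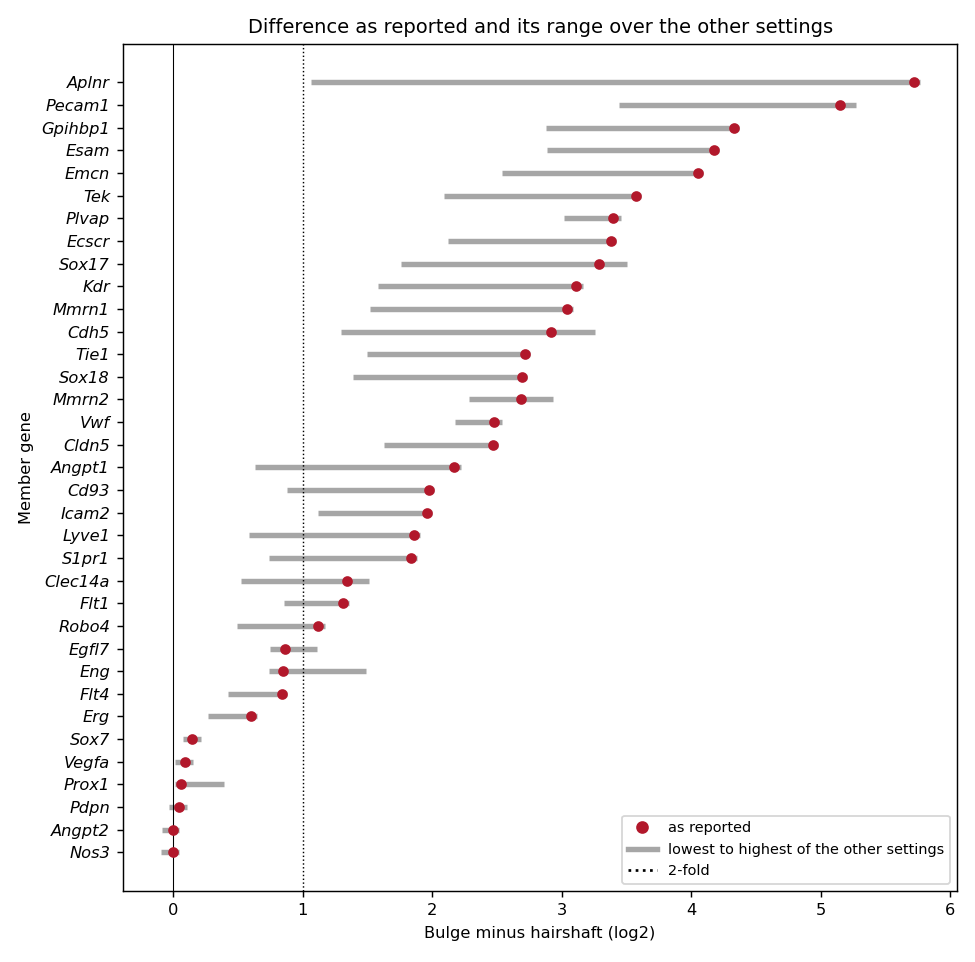
Bulge minus hairshaft difference (log2) of each gene as reported (red point) and the lowest to highest value over the other settings (grey bar), with the 2-fold limit dotted. Most grey bars extend to the left of the point, and those of Vwf (2.18 to 2.54) and Plvap (3.02 to 3.46) are short.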

How the data were processed

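The deposited table holds log2 values of 45101 probe sets on 2 arrays, made by the authors with GCRMA per the submitters' processing notes (no version or settings given); that they are log2 follows from their range. The sorted columns differed by at most 0.19, so no scaling was added. The platform annotation gave 1 gene for 34958 probe sets, several for 932 and none for 9211, and 34754 symbols were updated against RefSeq names of GRCm38.p6. The array files name no build.

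Each gene took its probe set with the highest mean, giving 18194 genes. Values at or below the floor (2.68) were replaced by it, and genes under it on both arrays were left out. With 0 residual degrees of freedom no test was run. Genes were counted at limits of 2-fold and 8-fold. The genes, lists and limits were chosen with earlier results of these data known. All 35 measured genes are named, and up to 4 genes of each further vessel list and up to 2 of each marker list by size of difference. Lpl, Fli1, Itga9, Vegfc, Vegfd, Hba-a1, Alas2, Mbp, Krt15 and the hair shaft keratins were named after their values were seen, and that keratin list was added then. The same holds for the naming of Cd34, Cd200, Pdgfrb, Notch3 and Higd1b.

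The counting was tested on simulated data with shifts planted only in genes well above the floor, so recovery of genes near it was not tested. The 9 alternatives changed the floor, the probe set rule, an offset of 16, or the scaling (loess with span 0.3, median, quantile). Python 3.11.15, numpy 2.4.6, pandas 2.3.3, statsmodels 0.14.6 and matplotlib 3.10.9 were used. Promoter sequences are RefSeq's.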

Additional observations from a re-analysis of the deposited data

How the results depend on the processing

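The count of vessel genes at least 2-fold higher in bulge RNA was 25 as reported and ran from 19 (offset of 16) and 20 (99th percentile floor) to 25 over the 9 alternatives (1 of which, removing the median difference, left every value as reported), while the share of all genes ran from 8.46% to 12.3%, and the count higher in hairshaft RNA was 0 in each. The median over the measured genes above the floor, 2.17 as reported, became 1.58 with the 99th percentile floor (29 genes left) and 1.45 with the offset of 16. The blood vessel median became 1.97 and 1.52 under these settings, and the lymphatic median, 0.84 as reported, ran from 0.50 to 1.08. Of 302 single-gene values under the alternatives, 56 moved by over 1.5-fold, 55 of them to a smaller difference, and none of a gene at least 2-fold apart changed sign. The floor and offset settings could not have changed such a sign. Nor could they have put a gene 2-fold higher in hairshaft RNA, since none was higher there as reported. The count at least 8-fold higher in bulge RNA, whose alternatives were added after seeing the data, was 11 as reported, 5 with the 99th percentile floor, 7 with plain probe sets only and 3 with the offset of 16, and ran from 8 to 12 over the rest. Another 13 single-gene values could not be had, because a gene was under the raised floor, had no plain probe set or, for Prox1, fell under the usual floor when its probe sets were averaged. A higher floor or an offset shortens every difference with a dim side, by construction; the cause of the other changes was not tested. Leaving out a replicate was not possible, and no paired analysis was possible because each structure has 1 array. Signal near the floor limits what can be read for Prox1, Erg, Clec14a, Robo4, Nos3 and Angpt2, the 6 genes lost under the 99th percentile floor.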
